A study of Mus musculus with 10 samples.

Results

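The transcripts of 10 enzymes of glycolysis were followed through the reprogramming of mouse embryonic fibroblasts (MEFs) with and without FoxO6. They are Hk1, Hk2, Gpi1, Pfkl, Pfkp, Aldoa, Tpi1, Pgk1, Eno1 and Pkm, found by gene symbol among the 48476 genes of the deposited count table. All 10 symbols matched 1 gene each, and all 10 passed the filter on low counts. MEFs from E13.5 embryos (CBA/CaJ X C57BL/6J) received Oct4, Klf4 and Sox2 (together OKS) by retrovirus and were cultured in iCD1 medium, a defined reprogramming medium. Both arms received OKS. The control arm, OKS+DR, also received the red fluorescent protein DsRed, and the other arm, OKS+FoxO6, received the forkhead transcription factor FoxO6. Each arm gave 1 bulk RNA-seq library at days 0, 1, 3, 5 and 7, so there were 10 libraries and no replicate of any arm on any day. The comparison of the arms asks how added FoxO6 alters gene expression during the induction of pluripotency.

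Glycolysis converts glucose to pyruvate in the cytosol and yields ATP without oxygen. Hexokinases (Hk1, Hk2) trap glucose as glucose 6-phosphate, glucose phosphate isomerase (Gpi1) turns it into fructose 6-phosphate, and 6-phosphofructokinase (liver type Pfkl, platelet type Pfkp) commits it to the pathway. Aldolase A (Aldoa) splits the sugar, triosephosphate isomerase (Tpi1) interconverts the products, and phosphoglycerate kinase (Pgk1), enolase (Eno1) and pyruvate kinase (Pkm) act in the lower, ATP-forming part. Pluripotent stem cells are known for a high glycolytic rate, and a move from respiration to glycolysis is a known early event of reprogramming. FoxO factors are known regulators of glucose metabolism.

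The libraries held between 1206378 and 2221440 expected counts (median 1598065.5), and each member had at least 55 counts in every library. Foxo6 itself had a TPM (the authors' level corrected for transcript length and library size) of 0.61 to 2.29 in the OKS+DR libraries and of 762 to 1356 in the OKS+FoxO6 libraries, as the labels of the arms state. The summed TPM of 6 fibroblast markers (Col1a1, Col1a2, Col3a1, Thy1, Twist2, Pdgfrb) went from 3803 at day 0 to 575 at day 7 in OKS+DR and from 3351 to 971 in OKS+FoxO6. The sum of 7 genes of pluripotent or epithelial cells (Nanog, Esrrb, Dppa5a, Zfp42, Sall4, Epcam, Cdh1) went from 9.45 to 715 and from 1.29 to 137. Of 5 macrophage markers, Ptprc, Csf1r and Adgre1 had at most 0.6 TPM, Lyz2 at most 6.17 and Cd68, which other cells also express, at most 52.6. Of 4 endothelial markers, Cdh5 had at most 1.24 TPM and Pecam1 at most 5.73, while Kdr and Tek reached 44.6 and 104 and were called higher in OKS+FoxO6. The erythroid markers summed to at most 6.21. In bulk RNA, fewer cells of a type and less RNA per cell cannot be told apart.

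On the TPM scale, which allows levels to be compared between genes, the members fell into 2 groups. Pkm was the highest, with a median level of 1279 TPM over the 10 libraries, followed by Aldoa (953), Gpi1 (836), Eno1 (621), Tpi1 (352) and Pgk1 (324). The hexokinases and phosphofructokinases were lower, with a median of 88.1 for Pfkp, 67.4 for Hk1, 38.9 for Pfkl and 30.4 for Hk2. The ranges of Pgk1 and Pfkp over the libraries did not overlap, which separates the 2 groups. Every other pair of neighbours in this order had overlapping ranges. Pkm was nevertheless above Aldoa, and Eno1 above Tpi1, in 10 of 10 libraries, whereas Tpi1 was above Pgk1 in 7.

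Summed over the members, the level was 4699, 5473, 4525, 5682 and 6761 TPM at days 0, 1, 3, 5 and 7 in OKS+DR. In OKS+FoxO6 it was 4063, 4147, 3967, 3986 and 4351 on the same days. The control arm thus ended above all its earlier libraries, and in TPM the FoxO6 arm stayed below the lowest control library at every time point. As a share of expected counts this did not hold at day 7, where the members took 0.477% in OKS+FoxO6, above the 0.456% of OKS+DR at day 3. Pkm, Aldoa, Gpi1 and Eno1 make up most of this sum, so the low members are described one by one.

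**Figure D1:**
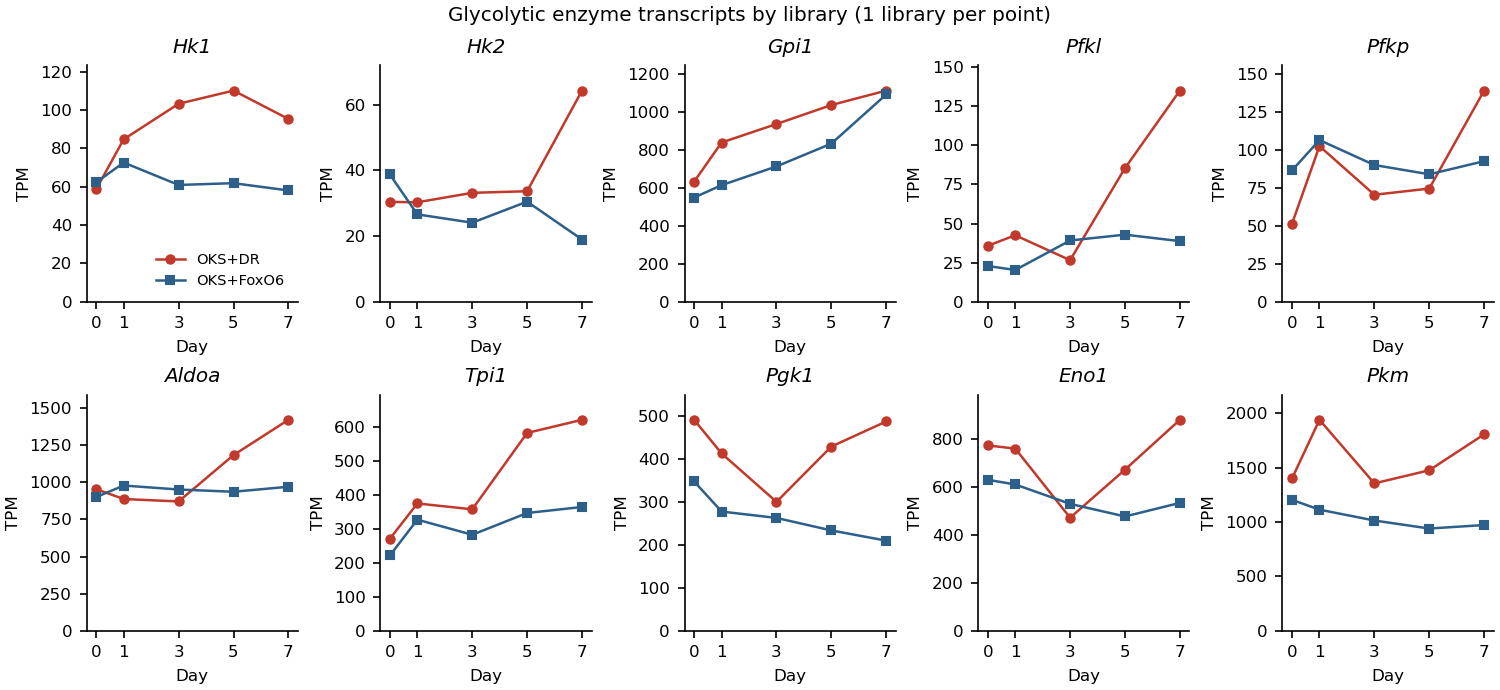
TPM of the 10 enzymes (vertical axis, starting at 0) against day (horizontal axis), with 1 library per point, OKS+DR as red circles and OKS+FoxO6 as blue squares. In OKS+DR 7 genes are highest at day 7 (Pfkl 135, Hk2 64.3), while in OKS+FoxO6 Pgk1 ends at 210.2 and Gpi1 at 1092.

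The hexokinases differed most between the arms late in the course. Hk1, the hexokinase of most tissues, measured 58.8, 84.7, 103, 110.1 and 95.3 TPM in OKS+DR, in the order of the days, and 62.2, 72.5, 60.9, 61.8 and 58.0 in OKS+FoxO6. The arms were close at day 0 and apart from day 3 on. Hk2, the inducible and insulin-responsive form, had 30.4, 30.3, 33.1, 33.6 and 64.3 TPM in OKS+DR against 38.7, 26.6, 24.1, 30.5 and 18.9 in OKS+FoxO6. Its control level was highest at day 7, the day on which the FoxO6 arm was lowest. Up to day 5 the control lay in a narrow band in TPM but not in CPM (counts scaled to the library total), with 88.7, 61.5, 69.1 and 82.7, while the mean length of its transcripts went from 5513 nucleotides at day 0 to 4121 at day 1. At day 7 the Hk2 counts, scaled to library size, were 0.277 times those of the control (95% exact binomial interval 0.211 to 0.359, from 311 and 72 counts). Such intervals cover counting error only.

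Gpi1 was the exception among the upper enzymes. Its TPM was 632, 839, 936, 1036 and 1112 in OKS+DR and 548, 614, 713, 833 and 1092 in OKS+FoxO6 on the 5 days. The level was higher on each day than on the one before in both arms, and the FoxO6 arm was below the control on each day. The gap was smallest at day 7, where the difference in log2(TPM + 1), OKS+FoxO6 minus OKS+DR, was -0.03.

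The phosphofructokinases were both lower in OKS+FoxO6 at day 7 and had opposite signs in TPM at days 0, 1 and 5. Pfkl had a TPM of 35.7, 42.5, 26.5, 85.5 and 135 in OKS+DR and of 22.8, 20.2, 39.1, 42.9 and 38.7 in OKS+FoxO6. It had the widest range of the members, 6.68-fold from the lowest to the highest library. Pfkp had 51.2, 102, 70.3, 74.4 and 139 TPM in OKS+DR and 86.3, 106, 89.9, 83.8 and 92.4 in OKS+FoxO6. Pfkp was the only member higher in OKS+FoxO6 on 4 of the 5 days, and at day 7 it was lower there as well. With the muscle type Pfkm, which is no member, the 3 genes summed to 101, 177, 132, 189 and 295 TPM in OKS+DR and to 129, 143, 147, 147 and 149 in OKS+FoxO6. Pfkl made up 35.3, 24.0, 20.1, 45.1 and 45.7% of this sum in OKS+DR and 17.6, 14.1, 26.7, 29.1 and 26.1% in OKS+FoxO6, where Pfkp made up 56.8 to 74.2%. In expected counts, which are not corrected for transcript length, the share of Pfkl was 28.2, 19.4, 21.5, 48.0 and 40.1% in OKS+DR and 17.9, 14.8, 18.8, 22.1 and 27.8% in OKS+FoxO6. The order of the arms at day 3 thus turned between the scales, and on the other days Pfkl had the smaller share in OKS+FoxO6 on both. No test was made on these shares.

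**Figure D2:**
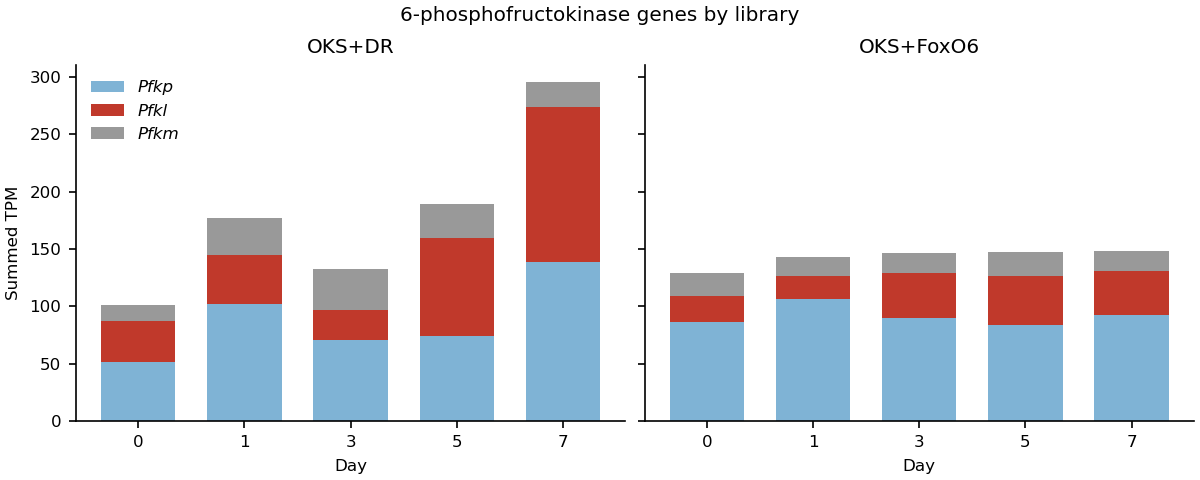
Summed TPM of the phosphofructokinase genes (vertical axis) by day (horizontal axis) in OKS+DR (left) and OKS+FoxO6 (right), with Pfkp in light blue, Pfkl in red and Pfkm in grey, 1 library per bar. The control bar reaches 295 at day 7 with a Pfkl share of 45.7%, while the FoxO6 bars lie between 129 and 149.

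The enzymes of the middle steps were among the more abundant members. Aldoa had a TPM of 954, 888, 872, 1184 and 1421 in OKS+DR and of 901, 979, 952, 937 and 970.5 in OKS+FoxO6. Its FoxO6 libraries lay close together, above the control at days 1 and 3 and below it on the other days. Tpi1 had 271, 374, 357, 582 and 620.1 TPM in OKS+DR and 221, 327, 282, 346 and 364 in OKS+FoxO6. Tpi1 was higher at day 7 than at day 0 in both arms and lower in OKS+FoxO6 on each of the 5 days.

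In the lower part of the pathway, Pgk1 had a TPM of 492, 413, 301, 429.5 and 488 in OKS+DR and of 348, 278, 263, 234 and 210.2 in OKS+FoxO6. The control arm dipped at day 3 and came back, while in the FoxO6 arm every library was below the one before in TPM. In CPM the FoxO6 level was 203 at day 5 and 213 at day 7. Eno1 had 774, 761, 472, 673 and 881 TPM in OKS+DR and 631, 611, 530.1, 477 and 534 in OKS+FoxO6, with the same dip of the control at day 3, the only day on which Eno1 was higher in OKS+FoxO6. Pkm had 1399.55, 1938, 1354, 1475 and 1805 TPM in OKS+DR and 1203, 1113, 1013, 939.7 and 972 in OKS+FoxO6. It was the only member whose arms did not overlap, all FoxO6 libraries being below all control libraries, as for 1.29% of the 14837 genes whose TPM averaged 1 or more. The values of Eno1 are uncertain, since the near-identical gene Eno1b shares its reads. Eno1 held 54.8 to 60.0% of the expected counts of the pair, and the summed TPM of both was 1473, 1339.5, 911, 1194 and 1685 in OKS+DR and 1141, 1076, 956, 863 and 965 in OKS+FoxO6. Of the other near-identical copies, Pgk1-rs7 and Aldoart1 were at 0 in all libraries and Aldoart2 had at most 0.83 TPM.

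On single days few members passed 2-fold, the threshold of the study, and all that did were lower in OKS+FoxO6. At day 7 all 10 members were lower, 3 of them past 2-fold (Hk2, Pfkl and Pgk1), where 21.0% of all 16090 genes compared were 2-fold lower and 10.6% 2-fold higher. The differences in log2(TPM + 1) of these 3 were -1.71, -1.78 and -1.21. The median of the members was -0.74 at day 7, beside -0.20 for all genes compared. At day 5, 9 members were lower and none passed 2-fold (background 14.9% lower), with a median of -0.57 beside 0.01 for all genes. At day 3, 6 members were lower, none past 2-fold (15.2%), with a median of -0.27 (-0.01 for all genes). At day 1, 8 were lower and 1, Pfkl, passed 2-fold (13.1%), with a median of -0.27 (also -0.01 for all genes). At day 0, 7 were lower, none past 2-fold (9.22%), with a median of -0.21 beside 0.13 for all genes. With 1 library per arm and day these differences have no replicate check. The share of members past 2-fold was below the background at days 0, 1, 3 and 5, and at day 7 it was 3 of 10 beside 21.0%. The background takes in genes from 1 TPM up, whose counts can be low, while each member had at least 55 counts. The shares therefore differ in counting error. At day 0, Hk1 (0.939 times the control, 95% exact binomial interval 0.77 to 1.15) and Hk2 (0.995, 0.783 to 1.27) were lower in scaled counts and higher in TPM.

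**Figure D3:**
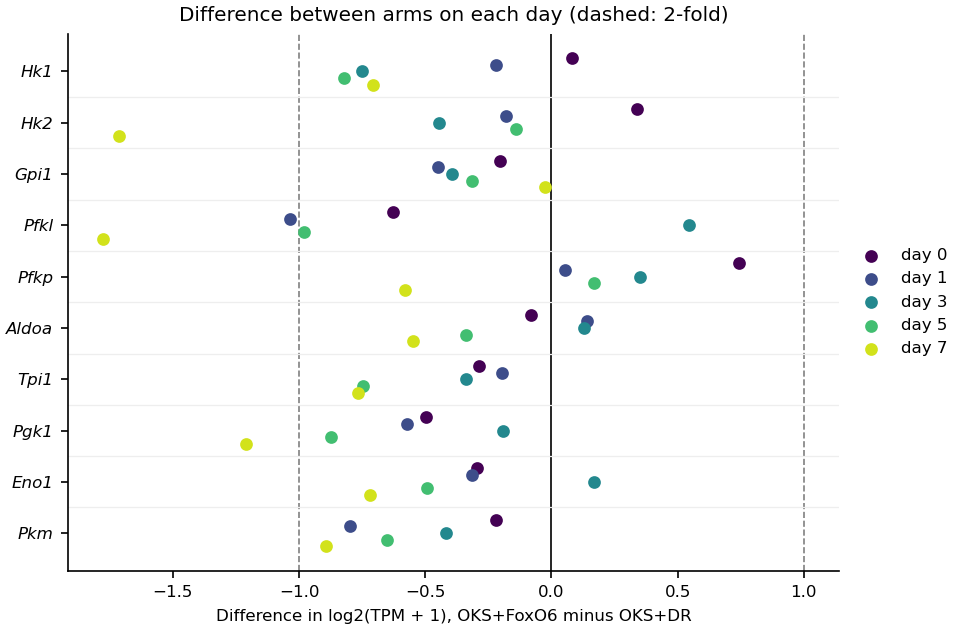
Difference in log2(TPM + 1), OKS+FoxO6 minus OKS+DR (horizontal axis), for each enzyme (vertical axis), with 1 point per day from day 0 (dark) to day 7 (yellow) and dashed lines at 2-fold. All 10 points of day 7 lie below 0, and those of Hk2, Pfkl and Pgk1 lie beyond the line.

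Pfkl is the member most sensitive to the scale. The mean length of its transcripts, as RSEM weighted the isoforms, ranged from 2212 to 3730 nucleotides over the libraries, the widest range of the members (68.6%), against 43.1% for Hk2, 25.5% for Pfkp, 17.9% for Gpi1 and under 7% for the others. At day 7 the mean length of Pfkl was 2427 nucleotides in OKS+DR and 3205 in OKS+FoxO6, and the counts scaled to library size gave a smaller gap than TPM, 0.419 times the control (95% exact binomial interval 0.334 to 0.523) against 0.287 times in TPM. At day 3 the TPM of Pfkl was higher in OKS+FoxO6 and its scaled counts were 0.855 times the control (0.615 to 1.19). At day 1, where TPM placed Pfkl past 2-fold, the ratio of scaled counts was 0.711 (0.500 to 1.01). At day 5 the order was turned around, with a difference in log2(TPM + 1) of -0.98, just inside 2-fold, and a count ratio of 0.320 (0.249 to 0.409).

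Taking the 5 days as the repeats, edgeR's quasi-likelihood test on the rounded expected counts, with a term for each day and p-values adjusted by Benjamini-Hochberg over 12139 genes, found 5 of the 10 members lower in OKS+FoxO6 and none higher. Of all genes tested, 6.92% were called lower and 6.69% higher. The log2 fold change of Pkm was -0.62 (standard error 0.11, adjusted p = 0.00365 from edgeR), and Pkm was lower on 5 of 5 days. Pgk1 fell by 0.69 on the log2 scale (standard error 0.14, adjusted p = 0.00803 from edgeR), also on 5 of 5 days. Pfkl had -0.85 (0.21, edgeR's adjusted p = 0.0211), lower in TPM on 4 days, Tpi1 -0.48 (0.12, 0.0218), lower on 5 days, and Hk1 -0.54 (0.14, 0.0305), lower on 4 days. The remaining members were not called, with log2 fold changes of -0.31 for Gpi1, -0.36 for Eno1, -0.64 for Hk2, -0.16 for Aldoa and 0.12 for Pfkp (edgeR's adjusted p from 0.0652 to 0.67). The median of the 10 was -0.51, beside -0.02 for all genes tested. Pkm, Pgk1, Tpi1 and Gpi1 were lower in OKS+FoxO6 on all 5 days, as were 8.58% of those 14837 genes.

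The 5 fold changes were negative under every alternative run, while the number of calls varied, and DESeq2 gave the same 5 calls. Without day 5 only Pkm was called (-0.59), with log2 fold changes of -0.62 for Pgk1 (edgeR's adjusted p = 0.05, at the threshold), -0.40 for Tpi1, -0.44 for Hk1 and -0.62 for Pfkl, and the calls over all genes went from 1652 to 698. Without day 3, Tpi1 (-0.50) and Hk1 (-0.47) were not called, and 762 genes were. Without the day term none of the 5 was called, at -0.63 for Pkm, -0.71 for Pgk1, -0.52 for Tpi1, -0.57 for Hk1 and -1.02 for Pfkl, with 168 genes called in all. With the effective length as an offset, Hk1 (-0.50) and Pfkl (-0.83) were not called. The same 2 were lost with limma on log2(TPM + 1), at -0.484 and -0.775, and Hk1 (-0.60) was lost without day 1. With Eno1b added to Eno1, the sum was called lower as well, as was Eno1b alone (-0.45, edgeR's adjusted p = 0.0352). The labels do not say whether the time points of an arm were separate infections, so the p-values measure only the spread between these libraries, which may be technical. The markers of pluripotent and epithelial cells moved in the same direction, with 3 of the 5 that passed the filter called lower in OKS+FoxO6 and 2 of the 7 (Esrrb, Dppa5a) too low to test. The log2 fold changes of these 3 were -3.11 for Cdh1, -3.00 for Nanog and -1.86 for Epcam (edgeR's adjusted p = 3.96e-05, 0.00594 and 0.0051). Of the fibroblast markers Col3a1 was called lower (-0.63, edgeR's adjusted p = 0.0193). Col1a1 (-0.48) was negative, and Pdgfrb (0.80), Col1a2 (0.47), Thy1 (0.16) and Twist2 (0.02) were positive. None of these was called, and the list median was 0.09. Of the endothelial markers Kdr (2.19) and Tek (0.96) were called higher (edgeR's adjusted p = 0.029 and 0.00112). Among the transduced factors, Pou5f1 (Oct4) was called higher in OKS+FoxO6 (0.43, edgeR's adjusted p = 0.0344), and Klf4 (0.30) and Sox2 (0.27) were not. Counts per gene do not separate transduced from endogenous transcripts of these factors. By qPCR the paper reported that FoxO6 suppressed the activation of pluripotent genes, Oct4 among them. The part of the markers and transduced factors in the enzyme levels was not tested.

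Over time, 3 members rose in the fit over both arms. Between day 0 and day 7 Gpi1 rose by 0.90 on the log2 scale (standard error 0.16, adjusted p = 0.00222 from edgeR), Tpi1 by 1.01 (0.19, 0.00294) and Pfkl by 1.38 (0.32, 0.0102). No member was called lower, and Pgk1 had the only negative estimate (-0.33). Of all genes tested 22.0% were called, 11.8% as higher at day 7 and 10.2% as lower. The same 3 were the members that changed on any day in a test of all day terms, which called 20.2% of genes. Within OKS+DR, 9 members were higher at day 7 than at day 0 and 4 passed 2-fold (Hk2, Pfkl, Pfkp and Tpi1, where 25.9% of genes did), with a median difference in log2(TPM + 1) of 0.75 beside 0.19 for all genes. Within OKS+FoxO6, 5 were higher and 5 lower, none passed 2-fold in either direction on this scale (background 17.2% higher and 20.0% lower), and the median was -0.002 beside -0.10. In scaled counts, Hk2 was 1.78 times its day 0 value at day 7 in OKS+DR (95% exact binomial interval 1.43 to 2.24) and so under 2-fold, and 0.496 times in OKS+FoxO6 (0.373 to 0.652). Its ratio in OKS+FoxO6 was thus past 2-fold lower in scaled counts and in TPM (0.488), and it missed 2-fold only with the pseudocount of 1 (-0.996, against -1.03 with 0.1).

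Whether the arms moved apart steadily was tested as a difference in slope per day. No member was called, where 1.75% of the 12139 genes were (1.1% higher and 0.643% lower), and 4 members had an unadjusted p under 0.05 from edgeR (Hk2, Pfkl, Pfkp and Hk1), as did 18.1% of all genes tested. DESeq2 and limma on log2(TPM + 1) called none either, with 1 and 6 members at an unadjusted p under 0.05 (1922 of 14837 genes with limma). The slope difference was negative for 9 of the 10 members, with a median of -0.06 per day on the log2 scale beside 0.01 for all genes. Hk2 had the lowest value, -0.22 per day (standard error 0.05, adjusted p = 0.0552 from edgeR), and was called when day 5 was left out (adjusted p = 0.0167 from edgeR). A miss here does not show that the courses ran in parallel.

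The region before the transcription start is shown for 3 members: Hk2 and Pgk1, which were past 2-fold lower at day 7 and whose RefSeq start coincides with the 5′ edge of the GENCODE gene, and Gpi1, which had the smallest gap on that day. Capitals mark matches to ACGTG, the core letters of the hypoxia response element, on either strand. The sequences hold the 250 bases before the start on the sense strand, from RefSeq on GRCm38.p6.
Hk2 (chr6:82774455-82774704, minus strand): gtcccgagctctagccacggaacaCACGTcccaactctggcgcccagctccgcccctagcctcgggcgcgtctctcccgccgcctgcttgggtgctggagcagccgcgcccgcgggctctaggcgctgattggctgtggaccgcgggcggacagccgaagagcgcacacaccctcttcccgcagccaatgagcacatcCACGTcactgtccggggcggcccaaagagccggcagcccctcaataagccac
Pgk1 (chrX:106186850-106187099, plus strand): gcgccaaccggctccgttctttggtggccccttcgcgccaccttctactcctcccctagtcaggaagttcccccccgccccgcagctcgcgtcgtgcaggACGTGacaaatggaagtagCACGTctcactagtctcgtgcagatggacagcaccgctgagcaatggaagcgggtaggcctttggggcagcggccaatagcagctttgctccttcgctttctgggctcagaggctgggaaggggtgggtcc
Gpi1 (chr7:34230337-34230586, minus strand): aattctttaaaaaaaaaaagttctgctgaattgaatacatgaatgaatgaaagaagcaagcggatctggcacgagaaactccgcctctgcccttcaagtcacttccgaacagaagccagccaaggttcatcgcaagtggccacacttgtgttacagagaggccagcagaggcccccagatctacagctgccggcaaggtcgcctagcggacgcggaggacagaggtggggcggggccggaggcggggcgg
The windows of Hk2 and Pgk1 held 2 matches each and that of Gpi1 held none. No match was found for Pfkl, also past 2-fold lower at day 7, or for Hk1, Tpi1 and Pkm, called lower over the 5 days. A link between matches and levels was not tested. Of the 10 members Hk2 and Pgk1 alone had a match, and 16.6% of 32851 promoter windows of the same length hold one. The RefSeq start lay 304 bases inside the GENCODE gene for Aldoa, 276 for Pfkl, 208 for Pkm and 138 for Tpi1. These windows lie wholly (Aldoa, Pfkl) or partly (Pkm, Tpi1) inside the gene. A missing match there, to this or to the motifs below, does not describe all of the region before the GENCODE edge. The alternative core GCGTG was found in the windows of Pfkl, Pfkp and Eno1 and in 28.2% of all windows, and the forkhead motif GTAAACA in none of the members and in 3.17% of all. These matches are letters in a window and not binding sites.

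In the annotation of GRCm38, Hk1 (ENSMUSG00000037012) runs from 62268855 to 62379908 and Pfkl (ENSMUSG00000020277) from 77986947 to 78010083, both on the minus strand of chromosome 10. Hk2 (ENSMUSG00000000628) runs from 82725025 to 82774454 and Tpi1 (ENSMUSG00000023456) from 124810586 to 124814296 on the minus strand of chromosome 6. Pgk1 (ENSMUSG00000062070) lies on chromosome X from 106187100 to 106203699 and Pkm (ENSMUSG00000032294) on chromosome 9 from 59656368 to 59679375, both on the plus strand. Gpi1 (ENSMUSG00000036427) runs from 34201330 to 34230336 and Aldoa (ENSMUSG00000030695) from 126795234 to 126800751 on the minus strand of chromosome 7. Pfkp (ENSMUSG00000021196) lies on the minus strand of chromosome 13 from 6579768 to 6648777, and Eno1 (ENSMUSG00000063524) on the plus strand of chromosome 4 from 150236721 to 150248879.

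The other steps of the pathway were measured with genes listed beside the members. Gapdh, glyceraldehyde 3-phosphate dehydrogenase and the most abundant enzyme of the pathway here, had a TPM of 6015, 5833, 4841, 5174 and 6169.6 in OKS+DR and of 5524, 4931, 4245, 4303 and 4654 in OKS+FoxO6. It was lower in OKS+FoxO6 on 5 of 5 days by a small margin and missed the threshold for the shift (log2 fold change -0.26, with a standard error of 0.08, adjusted p = 0.0627 from edgeR). Pgam1, phosphoglycerate mutase, had 507, 454, 339.8, 480.1 and 451 TPM in OKS+DR and 455, 515, 428, 363 and 273 in OKS+FoxO6, lower on 3 days and not called (-0.17, edgeR's adjusted p = 0.51). In the shift test 13.6% of all genes tested were called. Of the 16 other glycolytic enzymes listed, 7 could be tested, and 1 was called. This was the brain aldolase Aldoc, which went from 4.68 TPM at day 0 to 102 at day 7 in OKS+DR and from 4.2 to 22.7 in OKS+FoxO6 (a shift of -1.42, standard error 0.30, adjusted p = 0.0112 from edgeR).

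The 6-phosphofructokinase step is set by fructose 2,6-bisphosphate, made and removed by the Pfkfb enzymes. Of 5 regulators listed, Pfkfb1 to Pfkfb4 and the phosphatase Tigar, all but Pfkfb1 were tested, with Pfkfb2 higher in OKS+FoxO6 (log2 fold change 0.86, standard error 0.22, adjusted p = 0.0237 from edgeR) and Pfkfb3 lower (-0.70, 0.21, 0.0447). Pfkfb2 had 10.1, 39.0, 20.0, 13.8 and 14.3 TPM in OKS+DR and 24.4, 37.9, 47.2, 42.2 and 13.9 in OKS+FoxO6. It was higher there at days 0, 3 and 5 and level at days 1 and 7. Pfkfb3 had 18.5, 22.3, 16.9, 21.5 and 22.7 TPM in OKS+DR and 19.6, 12.5, 11.5, 12.1 and 6.98 in OKS+FoxO6. For Pfkfb3 the arms were close at day 0 and furthest apart at day 7.

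Among genes that carry glucose and lactate or interconvert pyruvate and lactate, single genes moved in both directions. Slc2a1, the glucose transporter GLUT1, had a TPM of 49.9, 38.4, 47.5, 197 and 536 in OKS+DR and of 85.8, 41.6, 51.5, 57.1 and 79.8 in OKS+FoxO6. The slope difference was -0.46 per day (standard error 0.06, adjusted p = 0.00246 from edgeR), while the shift over the days was not called (-0.83, adjusted p = 0.222 from edgeR), the FoxO6 arm being higher on the first 3 time points. Ldha, which reduces pyruvate to lactate, had 722, 562, 345, 679 and 883 TPM in OKS+DR and 577, 572, 315, 287 and 304 in OKS+FoxO6 (-0.66, standard error 0.20, adjusted p = 0.0542 from edgeR, just outside the threshold). Of the 11 genes of this list 8 were tested, with a median of -0.36, and 3 were called over the days. Slc2a3 (GLUT3) and the lactate exporter Slc16a3 were lower, with log2 fold changes of -2.06 and -3.22, and Slc2a12 was higher, with 0.98 (edgeR's adjusted p = 0.000534, 0.0178 and 0.0243). Slc16a3 rests on at most 3 counts in each of the FoxO6 libraries after day 0, so the size of its fold change is uncertain.

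**Figure D4:**
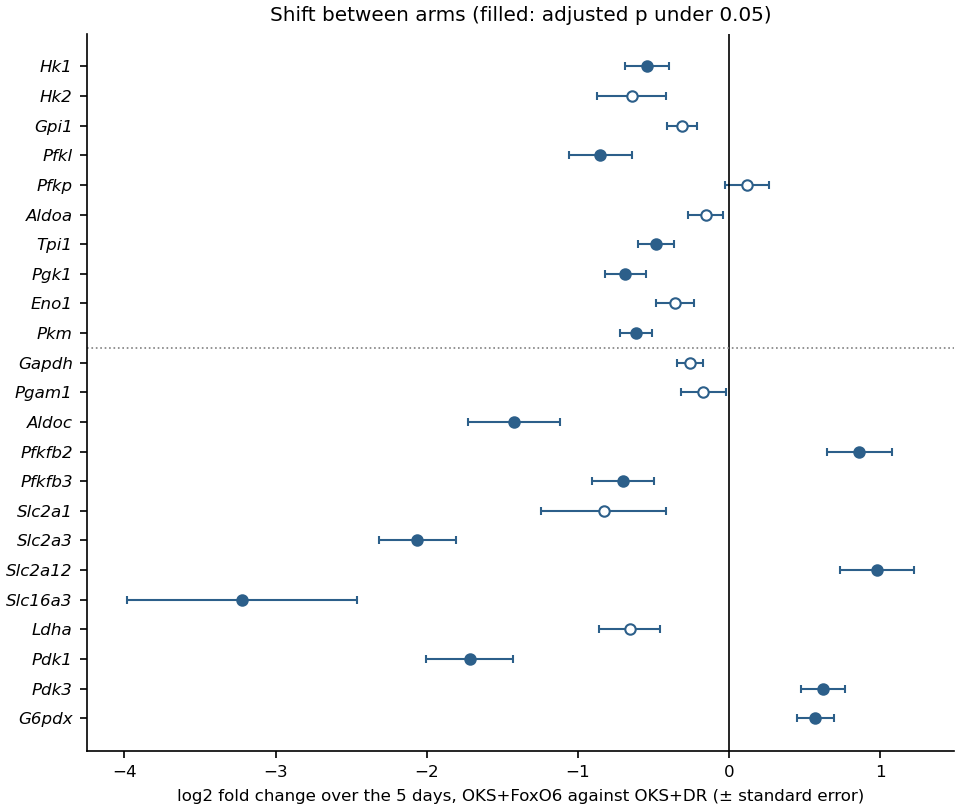
log2 fold change over the 5 days, OKS+FoxO6 against OKS+DR, with its standard error (horizontal axis) for the 10 enzymes (above the dotted line) and other genes of glucose use (below it), filled where edgeR's adjusted p is under 0.05. Of the enzymes 9 lie below 0 and 5 are filled, and the transporters Slc2a3 (-2.06) and Slc16a3 (-3.22) lie furthest to the left.

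Around the pathway, single genes of the branches were called in both directions, in a test that called 13.6% of all genes tested. Among 13 genes that lead pyruvate into the mitochondria 12 were tested, and Pdk1, a kinase that shuts pyruvate dehydrogenase, was lower in OKS+FoxO6 (log2 fold change -1.72, standard error 0.29, adjusted p = 0.00339 from edgeR) while Pdk3, of the same family, was higher (0.62, 0.15, 0.0174). In the pentose phosphate pathway, which leaves glycolysis at glucose 6-phosphate, 1 of 7 genes was called. G6pdx, its entry enzyme, was higher, with 160.1, 203, 199, 187 and 138 TPM in OKS+DR and 227, 297, 310.1, 265 and 240.5 in OKS+FoxO6 (0.57, standard error 0.12, adjusted p = 0.0112 from edgeR). None of the 5 genes of serine synthesis and use and none of the 3 tested of 7 gluconeogenesis genes were called over the days, with 3 and 0 of them at an unadjusted p under 0.05 from edgeR and list medians of -0.42 and -0.38. The share of all genes at that unadjusted p in the shift is not given here. Of 17 genes of the hypoxia response outside glycolysis 14 were tested and 3 were lower (Vegfa -1.99, Egln3 -2.45, Egln1 -0.49, edgeR's adjusted p = 0.00577, 0.00829 and 0.0418), with a list median of -0.14.

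Outside these lists, 9724 genes averaging 10 TPM or more were ranked by how close their profile was to the mean profile of the members, each centred on log2(TPM + 1) over the 10 libraries. The 5 closest were Coq7 (root mean square difference 0.11), Akr1b3 (0.13), Tra2b (0.14), Trim28 (0.15) and Zkscan17 (0.15). Coq7, an enzyme of ubiquinone synthesis, had 23.6, 26.7, 30.3, 35.0 and 44.3 TPM in OKS+DR and 23.5, 21.4, 23.5, 24.3 and 25.3 in OKS+FoxO6. Of the members, Aldoa was nearest to their mean profile (0.16) and Pfkl furthest from it (0.53).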

How the data were processed

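Reads were quantified by the authors with RSEM running Bowtie2 (versions not given in the sources used here) on the GENCODE M13 transcriptome (mm10). The deposited expected counts are RSEM estimates per gene without normalization, and the TPM values come from the same deposited RSEM output. RSEM divides reads between isoforms and near-identical genes, which affects Pfkl and Eno1. Coordinates are from GENCODE M21 on GRCm38, and promoters from RefSeq.

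Expected counts of 48476 genes were rounded and tested with edgeR 4.0.16 in R 4.3.3 (TMM, filterByExpr, quasi-likelihood test), with arm and day as factors, an arm-by-day term for the slope difference, and an adjusted p threshold of 0.05. The standard error is the log2 fold change divided by the root of its F statistic. Single days were compared as log2(TPM + 1), a scale that understates changes of low genes, keeping genes that reached 1 TPM in either library. The rest used numpy 2.4.6, scipy 1.17.1, pandas 2.3.3 and matplotlib 3.10.9 under Python 3.11.15. Alternatives were DESeq2 1.42.0, limma 3.58.1 on log2(TPM + 1), RLE factors, no filter, a length offset, other day terms and each day left out. The fits were tested on simulated data. The members, lists and alternatives were chosen with earlier results of these data known, and the sum of Eno1 and Eno1b was added after seeing the data, as were the alternatives for the change within an arm. Values are given for the members, for Gapdh, Pgam1, Ldha and Slc2a1, and for listed genes called in the shift or the slope difference. For orientation, transduced factors and cell type markers are given as well.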

Additional observations from a re-analysis of the deposited data

Results flagged for a closer look

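Listed genes whose slope per day differed between the arms in edgeR's test are given here on the log2 scale, OKS+FoxO6 minus OKS+DR. The slope difference was -0.46 for Slc2a1, -0.27 for Slc2a3, -0.995 for Slc16a3, -0.39 for Ndrg1, -0.43 for Vegfa and -0.29 for Pcx, and it was 0.36 for Col1a2 and 0.83 for Kdr. The gluconeogenic enzyme Pcx had 7.58 TPM at day 0 and 107 at day 7 in OKS+DR, against 9.77 and 36.5 in OKS+FoxO6.

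In TPM, 4 enzymes had opposite signs from day 0 to day 7, higher in OKS+DR and lower in OKS+FoxO6. The change in log2(TPM + 1) in OKS+FoxO6 minus that in OKS+DR was -2.05 for Hk2, -0.79 for Hk1, -0.68 for Pkm and -0.43 for Eno1. With 1 library per arm and day this difference itself was not tested. The share of all genes with such opposite signs was not determined, so the count of 4 cannot be set beside it. The pattern depends on the scale for Hk1, and in scaled counts it lies within counting error for Eno1. In counts scaled to library size, Hk1 in OKS+FoxO6 was 1.00 times its day 0 value (95% exact binomial interval 0.832 to 1.202), and the intervals of Eno1 held 1 in both arms (1.06, 0.976 to 1.15, in OKS+DR and 0.98, 0.901 to 1.07, in OKS+FoxO6). Hk2 (1.78 and 0.496 times) and Pkm (1.18 and 0.903 times) had opposite directions in scaled counts too, with intervals that left out 1.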

How the results depend on the processing

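The number of enzymes called lower over the 5 days was 5. It was 3 with an effective length offset, 3 with limma on log2(TPM + 1), 0 without a day term, 3 without day 3 and 1 without day 5, and from 4 to 6 under the other alternatives, always lower. Pkm was called under every alternative but the one without a day term. The rise of 3 enzymes from day 0 to day 7 gave 2 to 4 calls, with Pfkl lost under limma. The members past 2-fold from day 0 to day 7 within an arm were 3 to 5. The test of any change over days called 3, 5 without a filter on low counts, and 2 with the length offset or limma, which both lost Pfkl. The slope difference called 0, and 1 (Hk2) without a filter or without day 5. Values near 0 changed sign for Eno1 from day 0 to day 7 with limma (-0.026), for Hk2 without day 3 (-0.015), and for the slope differences of Gpi1 (-0.014) and Eno1 (0.007) without day 7. Between TPM and scaled counts the sign of the difference between the arms changed for Hk1 and Hk2 at day 0 and for Pfkl at day 3. The cause was not tested. The median library of 1598065.5 counts limits the lower genes, such as Slc16a3. The term for each day pairs the arms by day.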
